A study of Mus musculus with 9 samples.

Results

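The Usher syndrome network is a set of proteins that join the motor, the scaffolds and the adhesion molecules of sensory cells. Its 9 members here (Myo7a, Ush1c, Ush1g, Cib2, Cdh23, Pcdh15, Adgrv1, Whrn and Clrn1) were taken by gene symbol from a gene table of mouse retina RNA-seq, in which all 9 matched a single row among 55487 genes. The rule of choice used no measured value, but the members were chosen with earlier results of these data known. Reads counted on genes were compared between 3 genotypes at postnatal day 21 (P21).

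In hair cells of the inner ear, the long cadherins Cdh23 and Pcdh15 form the tip links between stereocilia, the myosin Myo7a carries and tensions them, and the scaffolds Ush1c and Ush1g tie the motor to the cadherins. Adgrv1, a very large adhesion receptor, and Whrn, a PDZ scaffold, belong to the ankle links at the base of the stereocilia. Clrn1 is a membrane protein of the clarin family, and Cib2 is a calcium-binding protein that works with the channel of mechanotransduction. In the retina these proteins are known from the connecting cilium, the periciliary membrane and the synapses of photoreceptors, and Myo7a is also known from the retinal pigment epithelium, where it moves melanosomes. Loss of these genes in people causes deafness, in most cases together with a slow loss of photoreceptors.

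Whole retinas came from C57 BL/6J mice. There were 3 libraries per genotype, and each pooled the retinas of 2 animals. Cre- controls lacked the Chx10-Cre-GFP transgene. The tHet animals carried the transgene and 1 floxed allele each of Tet1, Tet2 and Tet3, and in Tet tcKO animals, which also carried it, both alleles of all 3 genes were floxed. Tet genes encode the dioxygenases that oxidise 5-methylcytosine, and the transgene drives Cre in retinal progenitor cells in a mosaic pattern, so cells without recombination can remain. Cre+ animals were in-crossed to give 2 copies of the transgene in tHet and Tet tcKO alike, whereas Cre- animals came from Cre- breeders. A difference from Cre- therefore cannot be told apart from a difference between breeding lines or from an effect of the transgene. Tet tcKO and tHet both carried the transgene and both came from Cre+ in-crosses.

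Reads on genes numbered 9627927 to 21108256 per library, so that a single read was worth 0.0474 to 0.104 CPM (reads scaled to a library total of 1000000). Libraries of a genotype are pools of different animals, and they differed by more than counting noise in every pair. One library stood apart. In Tet tcKO replicate 3, 28.7% of reads fell on CT010467.1, a ribosomal RNA gene that took 0.0409% to 3.72% elsewhere, and every other gene of that library is lowered in proportion. Where leaving that gene out of the totals changed a call or whether genotypes overlapped, this is stated with the result. Reads on the whole Tet genes do not check the deletion, since they include exons outside the floxed ones. On the log2(CPM + 0.5) scale, Tet3 differed by -0.99 between Tet tcKO and Cre- (limma, adjusted p = 0.0174), Tet2 by 0.25 and Tet1 by 0.22. No gene on the lists for rods, cones, bipolar, amacrine and ganglion cells or Müller glia was at 0 in all libraries of a genotype. The same held for the lists of pigment cells, microglia and endothelium, so this does not test the label of the tissue.

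Across the network, Pcdh15 was the only member called between genotypes. It rose 2.80-fold in mean level in Tet tcKO retinas over Cre- (376 ± 103 against 1053 ± 178 CPM, SD, n = 3 each). The other tested members stayed short of the threshold in every comparison, with Myo7a and Cib2 the next highest in Tet tcKO and Adgrv1 and Clrn1 the lowest relative to Cre-. A call required a log2 fold change of 1 or more in either direction together with an adjusted p under 0.01 (limma, Benjamini-Hochberg over the 21330 genes tested). By this rule 1 of the 8 tested members was called in Tet tcKO versus Cre-, where 3.60% of all tested genes were. None of the 8 was called in Tet tcKO versus tHet, where the share over all tested genes was 3.00%. None was called in tHet versus Cre-, where the share was 0.0422%. Ush1c was too low to be tested in this fit. The comparisons with Tet tcKO share its 3 libraries, and they are therefore not independent of each other.

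**Figure D1:**
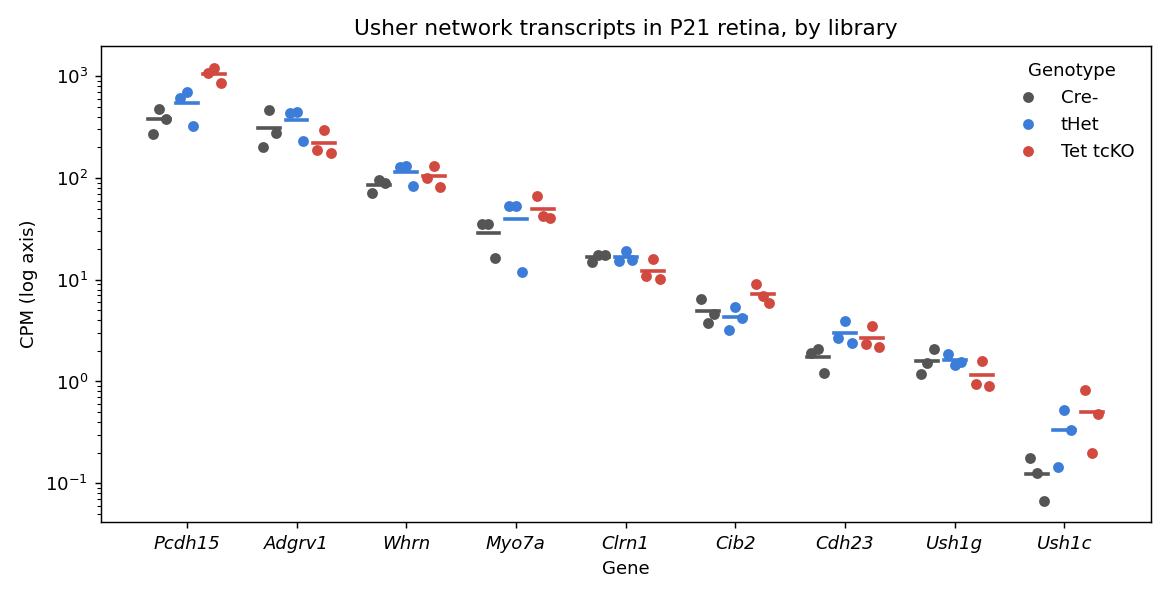
Level of each member in CPM (vertical log axis) in each library, with points for libraries in the order of replicates 1, 2 and 3, horizontal bars for the mean of 3 libraries and colours for genotype. Pcdh15 is the only member whose Tet tcKO libraries, at 864 to 1216 CPM, lie above all 6 of the others.

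Pcdh15 (ENSMUSG00000052613.16) encodes protocadherin-15, the lower part of the tip link. It spans 1550396 bases on the plus strand of chromosome 10, from 73099342 to 74649737 (GRCm38, GENCODE M21), with 41 annotated transcripts. Its promoter is shown because it is the called member. The 250 bases before the RefSeq start at position 73821867 (GRCm38.p6, plus strand, chr10:73821617-73821866) read as follows, 5′ to 3′, with a match to TGCTGA (the core of the site that MAF and NRL proteins bind) in capitals.
Pcdh15 promoter: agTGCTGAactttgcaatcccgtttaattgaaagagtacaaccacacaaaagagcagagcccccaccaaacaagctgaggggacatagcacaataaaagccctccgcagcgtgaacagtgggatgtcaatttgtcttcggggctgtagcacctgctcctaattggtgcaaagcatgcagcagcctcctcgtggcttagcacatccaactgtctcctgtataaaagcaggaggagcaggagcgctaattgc

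This start was shared, within 100 bases, by 28 of the 41 transcripts, while 3 transcripts began further upstream. TGCTGA or its reverse complement TCAGCA was found in 19.5% of the 32851 promoters of the RefSeq table, each 300 bases long (250 before the start and 50 from it). Among the 8 members the table holds (Ush1g had no entry), only Pcdh15 and Myo7a had a match. The letters TAATCC, bound by CRX-type homeodomain proteins, or their reverse complement GGATTA were found in 7.06% of promoters. Adgrv1 was the only member with that match, 7 bases after its start. A match of letters is not evidence of binding. The 300-base Pcdh15 promoter held 8 CpG dinucleotides and 50.7% G and C, against medians of 7 and 52.7% over the table.

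In Cre- retinas, Pcdh15 was at 270.1, 475 and 383 CPM in replicates 1, 2 and 3. In tHet retinas it was at 615, 694 and 321 CPM, and in Tet tcKO retinas at 1079, 1216 and 864 CPM. Every Tet tcKO library lay above every other library, whereas tHet replicate 3 fell among the Cre- libraries. On the log2(CPM + 0.5) scale, the difference between Tet tcKO and Cre- was 1.51 (SE 0.296, 95% interval 0.89 to 2.13, limma adjusted p = 0.00253). This call was lost without a filter on low genes (adjusted p = 0.0184) and without Cre- replicate 3 (limma adjusted p = 0.0117), Tet tcKO replicate 1 (0.0187) or Tet tcKO replicate 3 (0.015). Over the settings tried, adjusted p ran from 1.24e-09 with DESeq2 to 0.0187, and the log2 difference was 1.29 or more whichever library was left out. Between Tet tcKO and tHet the log2 difference was 1.02 (SE 0.296, 95% interval 0.40 to 1.63), which exceeded the fold threshold but not the threshold on p (limma adjusted p = 0.0463). With TMM scaling this difference was 1.09 and was called (limma adjusted p = 0.0091), DESeq2 called it (adjusted p = 8.2e-05), and edgeR did not (adjusted p = 0.0115). Without tHet replicate 3, the library with the lowest Pcdh15 of its genotype, the log2 difference was 0.67 (limma adjusted p = 0.167, within a range of 8.2e-05 to 0.172 over the settings tried). Pcdh15 in tHet differed from Cre- by 0.49 on the log2 scale (SE 0.296, 95% interval -0.13 to 1.11, limma adjusted p = 1).

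All members are lowered in the library rich in ribosomal RNA. With CT010467.1 left out of the totals, Pcdh15 in Tet tcKO replicate 3 was at 1212 CPM, between its neighbours at 1080.0 and 1217, and the ratio of means became 3.11 over Cre- and 2.14 over tHet. That scaling moved the median of all tested genes by 0.14 on the log2 scale in Tet tcKO versus Cre- and by 0.13 versus tHet. Relative to the median gene, the log2 difference of Pcdh15 from Cre- was 1.51 as reported and 1.53 with that gene left out. The difference from tHet was 1.07 and 1.09 relative to the median gene.

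**Figure D2:**
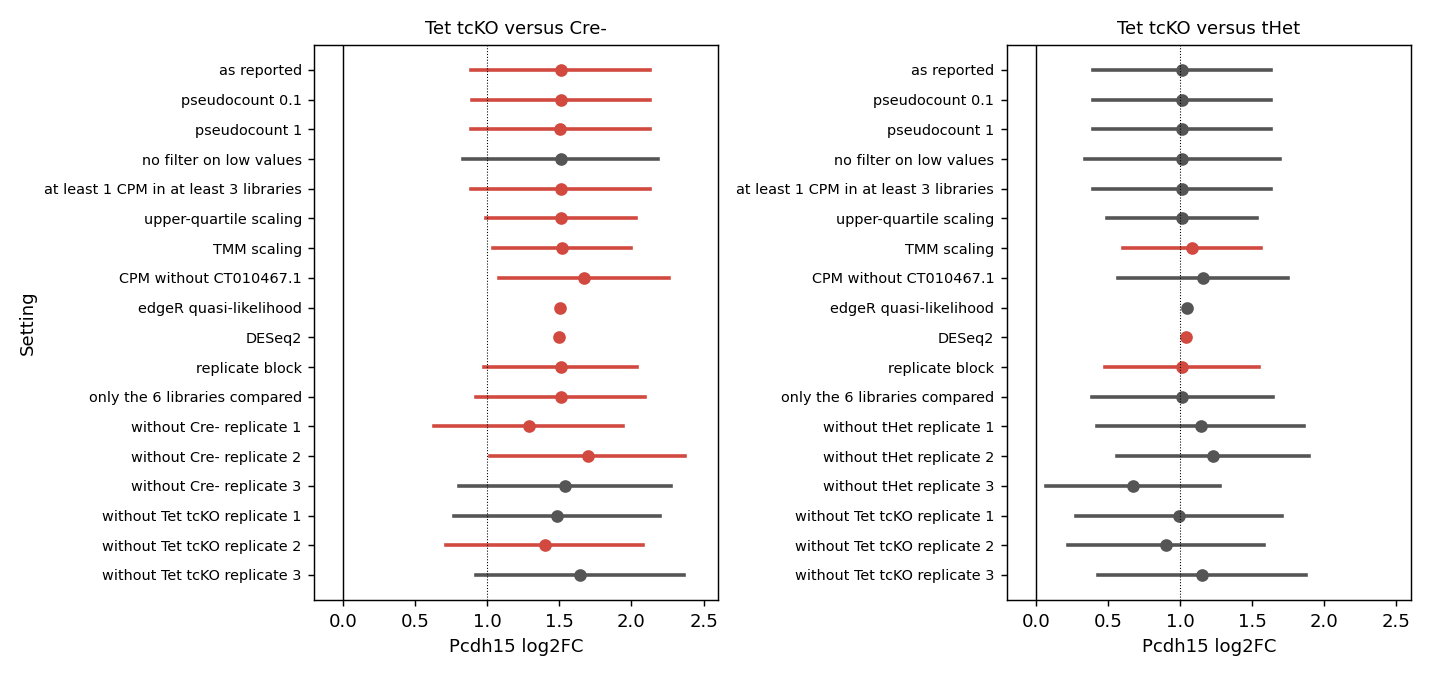
Log2 fold change of Pcdh15 (horizontal axis, with the fold threshold of 1 dotted) under each setting that changes the fit, with 95% intervals where the tool gives one. Red marks a difference called at an adjusted p under 0.01, and the estimates lie between 1.29 and 1.69 in Tet tcKO versus Cre- and between 0.67 and 1.23 in Tet tcKO versus tHet.

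Cdh23 (ENSMUSG00000012819.15) encodes cadherin-23, the upper part of the tip link and the binding partner of protocadherin-15. It lies on the minus strand of chromosome 10, from 60302748 to 60696490, and its principal transcript has 71 exons. It was at 1.88, 2.10 and 1.22 CPM in Cre-, at 2.66, 3.95 and 2.37 CPM in tHet and at 2.32, 3.49 and 2.17 CPM in Tet tcKO. All Tet tcKO libraries and all tHet libraries were above all Cre- libraries, and those 2 genotypes overlapped each other. The log2 difference from Cre- was 0.50 in Tet tcKO (SE 0.335, limma adjusted p = 0.563) and 0.64 in tHet (SE 0.335, limma adjusted p = 1), both short of the threshold. The ratio of Pcdh15 to Cdh23 reads within a library, which is not corrected for length and is compared only between genotypes, was 143 to 315 in Cre-, 135 to 231 in tHet and 348 to 466 in Tet tcKO. The ratio in Tet tcKO did not overlap that of either other genotype. However, it rests on 18 to 53 Cdh23 reads per library. The nearest values, 315 in Cre- replicate 3 and 348 in Tet tcKO replicate 2, rest on 18 and 53 Cdh23 reads. This ratio was chosen after its values were seen and is given without a test.

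Libraries of Tet tcKO and Cre- did not overlap for 3 of the 8 tested members (Pcdh15, Myo7a and Cdh23, all higher in Tet tcKO), beside 19.6% of all tested genes. In Tet tcKO versus tHet this held for 2 of 8 (Pcdh15 and Cib2, higher in Tet tcKO), beside 17.0% of all tested genes. In tHet versus Cre- it held for 1 of 8 (Cdh23), beside 11.1%. With CT010467.1 left out of the totals, Tet tcKO and Cre- did not overlap for 5 of these same 8 (Whrn and Cib2 in addition, higher in Tet tcKO), beside 31.5% of all tested genes. For 3 libraries against 3, the smallest p a two-sided exact permutation test can give is 0.1, so the order of libraries alone could not pass a threshold of 0.05. The median log2 difference of the 8 tested members was 0.39 in Tet tcKO versus Cre-, -0.14 in Tet tcKO versus tHet and 0.25 in tHet versus Cre-. Over all tested genes the corresponding medians were 0.0012, -0.056 and 0.057.

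**Figure D3:**
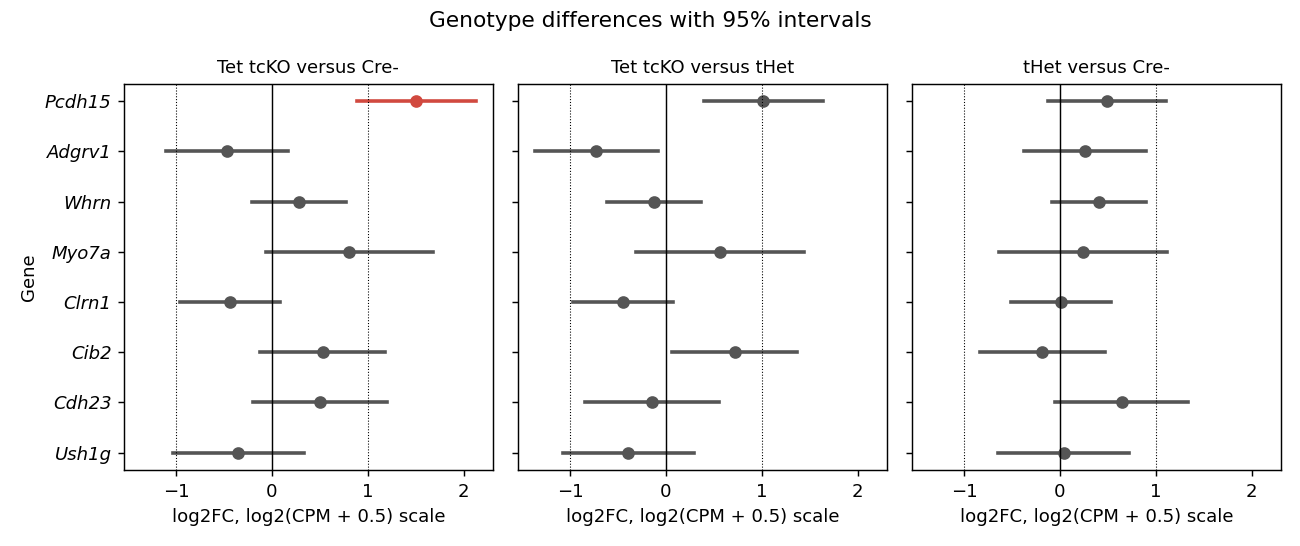
Log2 fold change on the log2(CPM + 0.5) scale (horizontal axis) with its 95% interval from limma for the 8 tested members in each comparison, with dotted lines at the fold threshold. Pcdh15 in Tet tcKO versus Cre-, at 1.51 and in red, is the only called difference.

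Adgrv1 (ENSMUSG00000069170.14) encodes the adhesion G protein-coupled receptor of the ankle links, also found at the periciliary membrane of photoreceptors. The gene lies on the minus strand of chromosome 13, from 81095068 to 81633154, and its principal transcript has 90 exons and 18894 coding bases. Adgrv1 was at 204, 461 and 275 CPM in Cre-, at 432, 444 and 231 CPM in tHet and at 188, 295 and 176 CPM in Tet tcKO. The genotypes overlapped, and the Cre- libraries alone covered the range from the lowest tHet library to the highest. The log2 difference from tHet was -0.73 in Tet tcKO (SE 0.306, 95% interval -1.36 to -0.09), and its adjusted p was 0.205 with limma. The difference from Cre- was -0.47 (SE 0.306, 95% interval -1.11 to 0.17, limma adjusted p = 0.548).

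Within each library Pcdh15 can be set against Adgrv1 without any scaling to the total. The ratio of Pcdh15 to Adgrv1 reads was 1.33, 1.03 and 1.39 in Cre-, 1.42, 1.56 and 1.39 in tHet and 5.74, 4.12 and 4.91 in Tet tcKO. The ranges of Cre- and tHet overlapped, and the lowest Tet tcKO library was far above both. The ratio is not corrected for length, was chosen after its values were seen, and is given without a test. Pcdh15 made up 43.5% to 48.6% of the reads on the 9 genes in Cre-, 47.8% to 51.3% in tHet and 71.0% to 74.0% in Tet tcKO. The share of Adgrv1 was 33.7% to 42.2% in Cre-, 32.8% to 34.6% in tHet and 12.9% to 17.2% in Tet tcKO. These shares are parts of the same total, so a higher share of Pcdh15 lowers the others. The share of Whrn was 8.69% to 11.8% in Cre- and 6.87% to 7.62% in Tet tcKO, although its mean CPM was 85.0 and 104.

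**Figure D4:**
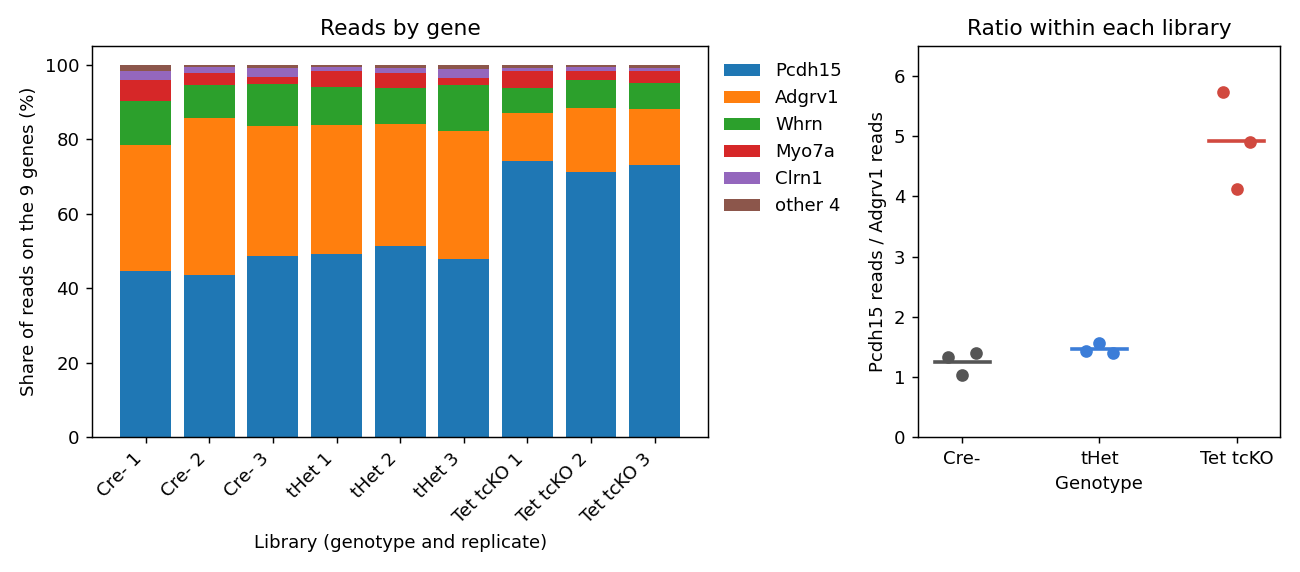
Left, the share of reads on the 9 genes (percent) taken by each member in each library. Right, the ratio of Pcdh15 to Adgrv1 reads in each library with the mean as a bar, at 1.03 to 1.56 in Cre- and tHet and 4.12 to 5.74 in Tet tcKO.

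Whrn (ENSMUSG00000039137.18) encodes whirlin, the PDZ scaffold that binds Adgrv1, and lies on the minus strand of chromosome 4, from 63414910 to 63495991. It was at 71.3, 94.9 and 88.7 CPM in Cre-, at 128, 131 and 83.9 CPM in tHet and at 100.2, 130.5 and 82.4 CPM in Tet tcKO. The 3 genotypes overlapped. The log2 difference of Tet tcKO from Cre- was 0.28 (SE 0.234, 95% interval -0.21 to 0.77, limma adjusted p = 0.703). With CT010467.1 left out of the totals, all Tet tcKO libraries, at 100.3, 130.6 and 115.6 CPM, were above all Cre- libraries. The log2 difference from Cre- was then 0.44 (95% interval 0.05 to 0.84, limma adjusted p = 0.163). Against tHet the log2 difference was -0.13, and its sign turned to 0.02 with that gene left out. Ratios of reads to Whrn are not corrected for length and are compared only between genotypes. They were chosen after their values were seen and are given without a test. Adgrv1 reads were 2.85 to 4.86 times Whrn reads in Cre-, 2.75 to 3.39 times in tHet and 1.88 to 2.26 times in Tet tcKO. Pcdh15 reads were 3.79 to 5.01, 3.83 to 5.29 and 9.32 to 10.8 times Whrn reads in the same order. For both ratios the Tet tcKO libraries lay beyond all others, on the low side for Adgrv1 and on the high side for Pcdh15.

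Clrn1 (ENSMUSG00000043850.15) encodes clarin-1, on the minus strand of chromosome 3 from 58844028 to 58885340. It was among the steadiest members in the controls, with 14.8, 17.5 and 17.4 CPM in Cre- and 15.3, 19.1 and 15.8 CPM in tHet. In Tet tcKO it was at 10.9, 15.9 and 10.1 CPM. Replicate 2 of Tet tcKO lay within the range of the controls, and the other libraries of that genotype lay below it. The log2 differences were -0.44 from Cre- (SE 0.249, 95% interval -0.96 to 0.08, limma adjusted p = 0.439) and -0.45 from tHet (SE 0.249, limma adjusted p = 0.379). With CT010467.1 left out of the totals, replicate 3 of Tet tcKO was at 14.1 CPM and the ratio of means to Cre- was 0.823.

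Myo7a (ENSMUSG00000030761.16), the motor of the network, lies on the minus strand of chromosome 7 from 98051060 to 98119524. It was at 35.4, 35.4 and 16.2 CPM in Cre-, at 52.6, 53.5 and 11.9 CPM in tHet and at 66.7, 42.0 and 40.04 CPM in Tet tcKO. All Tet tcKO libraries were above all Cre- libraries, but the lowest and the highest tHet library differed 4.50-fold, the widest spread of any tested member within a genotype. The log2 difference of Tet tcKO from Cre- was 0.81 (SE 0.42, 95% interval -0.07 to 1.68, limma adjusted p = 0.369). With CT010467.1 left out of the totals, Tet tcKO replicate 3 was at 56.2 CPM and the difference from Cre- was 0.97 (limma adjusted p = 0.253). From tHet it was 0.57 (SE 0.42, 95% interval -0.31 to 1.44, limma adjusted p = 0.554), and it turned to -0.14 without tHet replicate 3.

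Pigment epithelium that adheres to a dissected retina also carries Myo7a. The summed CPM of 10 pigment-cell markers was 164, 54.8 and 116 in the Cre- libraries, 197, 152 and 233 in the tHet libraries and 66.0, 68.9 and 47.7 in the Tet tcKO libraries, with no marker at 0 throughout a genotype. Of the 9 markers tested, 3 (Rpe65, Rgr and Lrat) were called lower in Tet tcKO than in Cre-, while 5 were higher without being called, and the median log2 difference was 0.03. Against tHet 5 were called lower and 2 were higher. The Tet tcKO libraries thus had the highest mean of Myo7a and the lowest mean of the summed pigment markers. The tHet library with the highest pigment sum, replicate 3, had the lowest Myo7a of all libraries. The part of pigment epithelium in the level of Myo7a was not tested.

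Of the remaining scaffolds and calcium-binding members, Cib2 came nearest to a difference. Cib2 (ENSMUSG00000037493.6; minus strand of chromosome 9, 54544794 to 54560218) was at 6.48, 3.75 and 4.59 CPM in Cre-, at 3.24, 5.40 and 4.17 CPM in tHet and at 9.03, 6.98 and 5.90 CPM in Tet tcKO. All Tet tcKO libraries exceeded all tHet libraries and overlapped Cre-. With CT010467.1 left out of the totals they lay at 6.99 to 9.03 CPM, above all 6 libraries of the other genotypes. The log2 difference was 0.72 from tHet (SE 0.312, 95% interval 0.06 to 1.37, limma adjusted p = 0.225) and 0.53 from Cre- (SE 0.312, limma adjusted p = 0.468). Exons of Cib2 overlap those of Sh2d7 on the opposite strand over 227 bases. The library kit kept strand, but the strand setting of the counting was not given in the sources used here, so reads over that overlap cannot be assigned with certainty.

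Ush1g (ENSMUSG00000045288.10; minus strand of chromosome 11, 115315192 to 115322041) encodes SANS, the scaffold that links the tip-link complex to Myo7a. It was at 1.18, 1.53 and 2.09 CPM in Cre-, at 1.87, 1.45 and 1.56 CPM in tHet and at 0.950, 1.58 and 0.903 CPM in Tet tcKO. Tet tcKO replicate 2 lay among the controls and the other libraries of that genotype below them. With CT010467.1 left out of the totals, replicate 3 was at 1.27 CPM, above the lowest Cre- library at 1.18 CPM. The log2 difference was -0.35 from Cre- (SE 0.327, 95% interval -1.04 to 0.33, limma adjusted p = 0.751) and -0.39 from tHet (SE 0.327, limma adjusted p = 0.615).

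Ush1c (ENSMUSG00000030838.20; minus strand of chromosome 7, 46195350 to 46238503) encodes harmonin, a PDZ scaffold of the tip-link complex, and was close to the detection limit. It had 3, 2 and 1 reads in Cre-, 2, 5 and 7 reads in tHet and 14, 3 and 8 reads in Tet tcKO. These counts correspond to pooled levels of 0.126 CPM in Cre- (95% exact Poisson interval 0.0463 to 0.275), 0.314 CPM in tHet (0.172 to 0.526) and 0.514 CPM in Tet tcKO (0.333 to 0.759), intervals that cover counting error only. In CPM, all Tet tcKO libraries were above all Cre- libraries, the nearest pair being 0.198 and 0.177 CPM, each resting on 3 reads. In a fit with no filter on low values, the log2 difference of Tet tcKO from Cre- was 0.64 (SE 0.263, limma adjusted p = 0.34). With CT010467.1 left out of the totals, Ush1c passed the filter and was not called. The log2 difference from Cre- was then 0.73 (95% interval 0.07 to 1.38, limma adjusted p = 0.167). Exons of Ush1c overlap those of Gm9860 on the opposite strand over 120 bases.

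Levels were compared between members per kilobase of annotated exon, since longer genes collect more reads. In Cre- retinas Pcdh15 (15.8 ± 4.32 CPM per kilobase, SD, n = 3), Adgrv1 (12.6 ± 5.33) and Whrn (11.6 ± 1.66) were highest. These SDs describe the spread between libraries. They do not test the order of genes measured in the same libraries. Clrn1 (4.29), Cib2 (3.45) and Myo7a (3.39) formed a middle tier in CPM per kilobase. Ush1g (0.484), Cdh23 (0.102) and Ush1c (0.0322) were lowest. The top of this order opened in Tet tcKO, where Pcdh15 was at 44.3 ± 7.47 CPM per kilobase, above Whrn at 14.2 ± 3.31 and Adgrv1 at 8.83 ± 2.63. Among 21302 genes ranked by CPM per kilobase, Pcdh15 stood at percentile 97.3 in Tet tcKO, 92.8 in tHet and 88.9 in Cre-. Adgrv1 stood at percentile 78.7, 87.9 and 85.6 in the same order. Exon length was the union of all annotated exons, so a gene used through a few short transcripts is understated.

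Photoreceptor markers also differed in Tet tcKO, where the rod sum was lower and the cone sum was higher. The summed CPM of 9 rod markers was 18803 to 21164 in Cre-, 17902 to 20590 in tHet and 3867 to 7401 in Tet tcKO, and 7 of the 9 were called lower in Tet tcKO than in Cre-. The sum of 8 cone markers was 554 to 693 in Cre-, 653 to 718 in tHet and 1718 to 2664 in Tet tcKO, with 6 called higher and 1 lower. Of 6 Müller glia markers 2 (Glul and Rlbp1) were called lower, and 2 (Sox9 and Slc1a3) were higher without being called. The sum of all 6, of which Glul is the most abundant, was 1361 to 1791 CPM in Cre- and 664 to 1038 CPM in Tet tcKO. In whole retina, a change in the number of cells of a type and a change in RNA per cell cannot be told apart, and the part of these markers in the level of Pcdh15 was not tested. Adgrv1, Whrn and Clrn1 were not called in either comparison of Tet tcKO, which does not show that they were unchanged. Their relation to these markers was not tested either.

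The genes whose levels ran most closely with each member over the 9 libraries were listed from 17421 candidates with a mean of at least 1 CPM, as a description by Pearson correlation of log2(CPM + 0.5) over libraries that share genotype. For Pcdh15 these were Pnpla3 (r = 0.988) and Lman1l (0.987), for Adgrv1 Gm45360 (0.989) and Igf2bp3 (0.988), and for Whrn 2810442N19Rik (0.987). For Clrn1 they were Kcnma1 (0.985) and Gm7452 (0.968), for Cib2 Fam43b (0.974) and Cd200 (0.969), and for Ush1g Epc2 (0.958) and Gm15681 (0.952). Cdh23 ran closest to 4931412I15Rik (0.946) and Gm11400 (0.936), and Myo7a to Tcf24 (0.934) and Gm25099 (0.92). Each r was picked as the highest from 17421 candidates over only 9 libraries, so it can be high even for unrelated genes. None was tested. No member was the closest gene of another by construction, since members were left out of the candidates. Between members, r over the 9 libraries was highest for Ush1g and Clrn1 (0.799) and was -0.012 for Pcdh15 and Adgrv1, the most abundant members in Cre-.

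Genes around the network were read from a list of 29 that held paralogues of members, other proteins of stereocilia and cilia, the intermicrovillar cadherins and genes of further deaf-blind disorders. Of these, 28 matched a symbol and 18 were high enough to be tested. None was called in Tet tcKO versus Cre- with limma, edgeR or DESeq2. An unadjusted p under 0.05 was found for 3 of the 18, beside 16.1% of all tested genes. Against tHet an unadjusted p under 0.05 (limma) was found for 6 of the 18, beside 17.5% of all tested genes. All 6 were lower in Tet tcKO. The log2 differences of the 18 ran there from -1.38 to 0.26. Of the 18, 1 was called against tHet, beside 3.00% of all tested genes. This was Eps8, which encodes an actin-capping and bundling protein of stereocilia tips. Eps8 was at 76.0, 114 and 77.2 CPM in Cre-, at 113, 112 and 79.0 CPM in tHet and at 39.4, 63.8 and 36.8 CPM in Tet tcKO, with every Tet tcKO library below every other. It fell by 1.14 on the log2 scale relative to tHet (SE 0.248, limma adjusted p = 0.00662), and its difference from Cre- was -0.94 (SE 0.248, limma adjusted p = 0.0226), short of the threshold. Of 19 settings, among them looser thresholds on the same fit that could not lose a call, 6 lost the call against tHet. These were no filter (limma adjusted p = 0.028), CT010467.1 left out of the totals (log2 difference -0.99, limma adjusted p = 0.0126), and the fits without tHet replicate 1 (0.0484), tHet replicate 2 (0.0306), Tet tcKO replicate 1 (0.056) or Tet tcKO replicate 3 (0.0509). Over all settings, adjusted p ran from 3.33e-06 to 0.056 and the log2 difference from -1.38 to -0.99. In tHet versus Cre- no gene of the list was called by limma, edgeR or DESeq2, and 1 had an unadjusted p under 0.05, beside 4.55% of all tested genes. The median log2 difference of the 18 was -0.12 in Tet tcKO versus Cre-, -0.15 in Tet tcKO versus tHet and 0.12 in tHet versus Cre-. Of 8 paralogues, Cib3 was at 0 in all 9 libraries, and Clrn2, Clrn3, Cib4 and Myo7b were too low to be tested, leaving Cib1, Anks4b and Pdzd7, none of which was called.

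In tHet versus Cre- none of the 8 tested members was called by limma, edgeR or DESeq2, and none had an unadjusted p under 0.05 in limma. Higher levels in tHet were seen for 7 of the 8. The log2 differences ran from -0.18 for Cib2 to 0.64 for Cdh23, with 0.49 for Pcdh15, 0.41 for Whrn, 0.26 for Adgrv1 and 0.24 for Myo7a. Ush1g (0.04) and Clrn1 (0.01) lay near 0 and changed sign with TMM scaling. In Tet tcKO versus tHet, 3 of the 8 members had an unadjusted p under 0.05 (Pcdh15, Adgrv1 and Cib2), beside 17.5% of all tested genes, edgeR called none and DESeq2 called 1, which was Pcdh15.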

How the data were processed

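RNA-seq of P21 retinas was analysed in 9 libraries, 3 per genotype. Ribosomal RNA was removed and stranded total-RNA libraries were made. Per the labels and the study's methods, the authors trimmed reads (Trim Galore 0.6.7), aligned them to mm10 (STAR 2.7.0f), counted them on genes (HTSeq 0.11.2) and deposited CPM divided by each library's plain total. The annotation release and the strand and overlap settings were not given in the sources used here. The deposited fold changes, p-values, averages and calls of the authors' own comparisons were not used.

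All CPM values were whole multiples of a read (100% within 0.01 read), so reads were recovered. This depth sets the precision of low values, and 3 reads equal 0.142 to 0.312 CPM. Values were analysed as log2(CPM + 0.5), keeping genes that reached 0.5 CPM in 3 or more libraries, with limma 3.58.1 in R 4.3.3 (lmFit, eBayes with trend), 1 mean per genotype and all 9 libraries. On recovered reads edgeR 4.0.16 (quasi-likelihood, TMM) and DESeq2 1.42.0 were alternatives, together with other pseudocounts, filters and scalings, the replicate block, only the 6 libraries compared, other thresholds and leaving out each library. Fold changes understate those of low genes.

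Replicate numbers came from the labels and mark different animals. Deviations from the genotype means correlated between same-numbered libraries of Tet tcKO and Cre- (r = 0.56, 0.352 and 0.148). The labels give no pairing of animals, so the replicate block was an alternative and not the main fit. For Tet tcKO and tHet r was -0.3, 0.273 and -0.08, and for tHet and Cre- -0.35, 0.356 and 0.036.

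Gene symbols and identifiers came from the deposited table. Of its identifiers, 55227 matched GENCODE M21 without regard to version, which gave positions. Promoters came from RefSeq (GRCm38.p6). Members and lists were chosen with earlier results of these data known. All 9 members, the listed genes that were called, and the 2 genes most correlated with each tested member are named. One gene that meets this rule is not reported here. CT010467.1 and the Pcdh15, Adgrv1, Whrn and Cdh23 ratios were chosen after their values were seen. P-values measure the spread between pools of animals.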

Additional observations from a re-analysis of the deposited data

How the results depend on the processing

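Pcdh15 was called in Tet tcKO versus Cre- under 15 of 19 alternatives, and no other member was called under any alternative in any comparison. The alternatives include looser thresholds on the same fit (an adjusted p under 0.05, or no fold threshold), which could not lose a call. Members called in Tet tcKO versus Cre- numbered 1, against 0 without a filter on low genes and 0 to 1 with a library left out. In Tet tcKO versus tHet they numbered 0, against 1 (Pcdh15) with TMM scaling, DESeq2, the replicate block or an adjusted p under 0.05. With the replicate block, Pcdh15 versus Cre- had an adjusted p of 7.1e-05 in limma and 1127 genes were called in place of 768, and the block changed no call of a member in that comparison. In the other comparisons the block gave 1125 genes in Tet tcKO versus tHet (Pcdh15 adjusted p = 0.00806, limma) and 40 in tHet versus Cre-. Genes called in Tet tcKO versus Cre- numbered 417 without a filter, 1156 at an adjusted p under 0.05, and 360 (without Tet tcKO replicate 1) to 769 with a library left out. Versus tHet (640 genes), they numbered 351 without a filter, 1046 with DESeq2, 1013 with only the 6 libraries, 1104 at an adjusted p under 0.05, and 287 (without Tet tcKO replicate 1) to 959 (without tHet replicate 3). In tHet versus Cre- (9 genes), they numbered 40 with DESeq2, 20 at an adjusted p under 0.05, 1 without a filter, with upper-quartile or TMM scaling, without CT010467.1, with edgeR and with only the 6 libraries, and 4 (without Cre- replicate 3) to 17 (without tHet replicate 3) with a library left out. Listed genes around the network called numbered 0 to 1 versus Cre- with a library left out. Versus tHet they numbered 0 without a filter or without CT010467.1, 2 with DESeq2, 3 with the block, only the 6 libraries or an adjusted p under 0.05, and 0 to 2 with a library left out. Log2 differences that changed sign were not called anywhere. In Tet tcKO versus tHet Whrn was 0.0169 without CT010467.1, and with a library left out Whrn ran from -0.3337 to 0.0306, Cdh23 from -0.3238 to 0.0443 and Myo7a from -0.1361 to 0.9256. In tHet versus Cre- Ush1g was -0.0016, -0.0015 and -0.001 and Clrn1 -0.0464, -0.0438 and -0.0453 with TMM scaling, edgeR and DESeq2. With a library left out, Ush1g ran there from -0.111 to 0.2032, Clrn1 from -0.087 to 0.0705, Cib2 from -0.3498 to 0.0108, Adgrv1 from -0.0095 to 0.5785 and Myo7a from -0.1283 to 0.9442. The cause of these moves was not tested. Depth limits Ush1c, whose level rests on 1 to 14 reads per library.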
